A study of Mus musculus with 20 samples.

Results

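The 10 genes described here encode the light-sensing machinery of cone photoreceptors: the opsins Opn1sw and Opn1mw, the arrestin Arr3, the transducin subunits Gnat2, Gnb3 and Gngt2, the phosphodiesterase subunits Pde6c and Pde6h, and the channel subunits Cnga3 and Cngb3. They were chosen by name, as the known parts of the cone cascade, out of 35006 genes counted in each of 20 libraries of polyA RNA from mouse retina. All 10 had counts in every library and all 10 passed the expression filter in every comparison. Together they took 0.213% to 0.269% of gene counts, or 40103 to 76144 counts per library.

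The mice were wild-type C57BL/6J, an inbred laboratory strain, and each library came from 1 retina of 1 mouse. NACET, an ethyl ester of N-acetylcysteine that cells take up readily, was given in the drinking water for 5 days at a daily intake of 50 mg/kg, while control mice drank water without it. The groups were 4 young control mice (119 days, 2 labelled male and 2 female), 6 young NACET mice (4 males of 129 days and 2 females of 119 days by their titles), 4 old control mice (668 days) and 6 old NACET mice (2 each of 668, 581 and 574 days), with all old mice labelled male. The study asked how the retina changes with age and what NACET does to it at either age. The methods of the study name only male mice, and for young NACET 6 the batch tag gives 129 days where the title gives 119 days. Because the old controls were all 668 days old, age and NACET cannot be told apart for the 4 younger old NACET mice. The young males were 129 days old with NACET and 119 days old without it. Among them NACET, age and batch tag cannot be told apart either.

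Cones serve daylight and colour vision. A photon that an opsin absorbs activates the cone G protein transducin, whose alpha subunit relieves phosphodiesterase 6 of its inhibitory subunit. The enzyme then lowers cGMP and the cyclic nucleotide-gated channels close. Arrestin binds the phosphorylated opsin and ends its activity. Most mouse cones carry both opsins, with the short-wavelength opsin prevailing in the ventral retina and the medium-wavelength opsin in the dorsal retina. In RNA of a whole retina, fewer cones and less RNA per cone cannot be told apart.

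Gene counts were 17.7 to 31.1 M per library (M, 1e+06 counts), and expression is given as CPM (counts per 1e+06 gene counts) together with the SD across a group's libraries. The rarest member, Cnga3, still had 242 to 479 counts per library. Of the 20 libraries, 5 stood apart. Old control 4, labelled male, had 59555 counts of Xist, the RNA made from the inactive X chromosome of females, and 1 count over 4 Y-linked genes. Markers of corneal epithelium (Krt5, Krt12, Krt14, Dsp, Dsc3 and Perp), a tissue outside the retina, summed to 421.0 CPM in old control 2, 396 CPM in young NACET 4 and 206 CPM in young NACET 5, against 2.77 to 95.3 CPM in the others. Lens markers summed to 7201 CPM in old NACET 1 and to at most 15.2 CPM elsewhere. Counts of members called are also given without these 5 libraries, a choice made with the data in view.

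The markers of the retina itself were present in every library, and no retinal marker was at 0 throughout. The 10 cone genes summed to 2125 to 2686 CPM. The 8 rod markers summed to 75942 to 90431 CPM in young control, 71426 to 88420 in young NACET, 67160 to 81389 in old control and 59351 to 70973 in old NACET libraries, so that old NACET lay below both young groups. Over the 4 groups, the ranges of the summed CPM overlapped in pairs for bipolar cells (947 to 1276 CPM), amacrine cells (426 to 615 CPM), Muller glia (2671 to 3590 CPM), horizontal cells (59.5 to 81.1 CPM), ganglion cells (638 to 1007 CPM) and the retinal pigment epithelium (351 to 512 CPM). Most of the last sum was Rlbp1 (308 to 400.3 CPM), which Muller glia also express; the other 7 pigment epithelium markers summed to 26.6 to 187 CPM in young control, 57.5 to 119 in young NACET, 61.2 to 139 in old control and 20.7 to 70.0 in old NACET libraries. The median log2 change of the 8 was 0.32 in aging, -0.91 for NACET in old mice, 0.20 for NACET in young mice and -0.83 between the ages under NACET. The part of these lists in the results on cone genes was not tested.

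Per length, the members spanned a wide range of levels, and their order was much the same in every group. On the scale of CPM per kb of annotated exon, the young control levels were 201 ± 14.5 for Opn1sw, 199 ± 39.1 for Arr3, 149 ± 6.18 for Gnb3 and 130 ± 13.7 for Opn1mw (SD, n = 4). Gnat2 followed at 86.8 ± 13.1, Pde6c at 61.4 ± 4.10, Gngt2 at 37.9 ± 5.46 and Pde6h at 27.8 ± 5.45 (SD, n = 4). The channel subunits were lowest, at 6.40 ± 1.02 for Cngb3 and 4.62 ± 0.26 for Cnga3 (SD, n = 4). Among young controls, the ranges of Opn1sw and Arr3, of Arr3 and Gnb3, and of Gngt2 and Pde6h overlapped. Within each library, however, Gngt2 lay above Pde6h. In young controls 1 to 4 Gngt2 was at 45.7, 33.9, 34.4 and 37.4 CPM per kb and Pde6h at 35.7, 24.3, 24.1 and 27.3. The order within the other pairs changed from library to library. The first place went to Opn1sw in both control groups and to Arr3 in both NACET groups. In young NACET, Arr3 lay at 230.0 to 296 CPM per kb and Opn1sw at 158 to 225, and in old NACET at 215 to 261 and 159 to 212, without overlap in either group. In old controls the ranges of Arr3 and Opn1sw overlapped. The lengths are those of all annotated exons, 1562 bases for Opn1mw and 7710 bases for Pde6h at the extremes, so that the place of Pde6h depends on a long annotation.

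**Figure D1:**
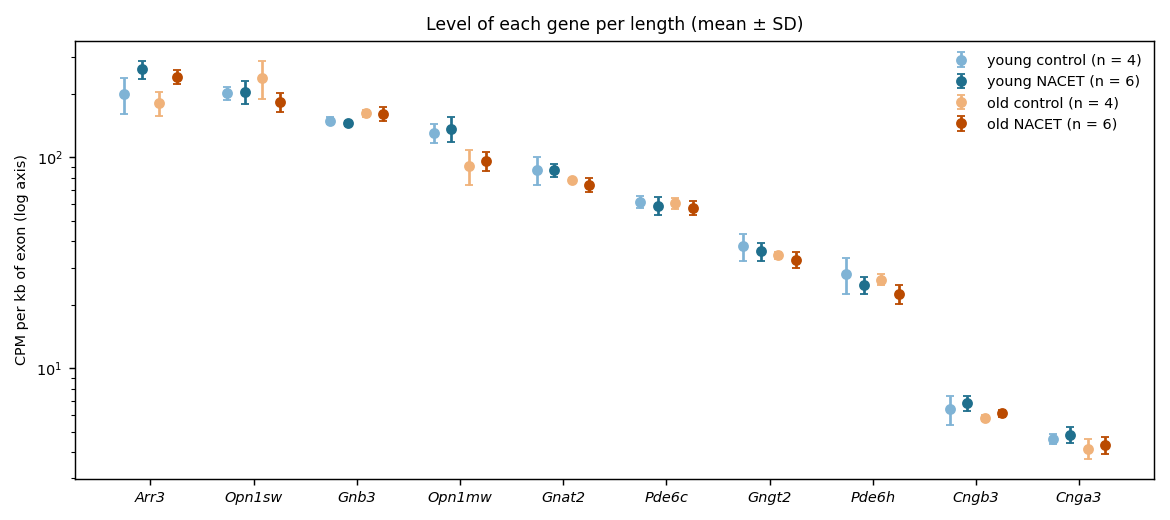
Level of each gene in CPM per kb of annotated exon (log axis), as the mean ± SD of the libraries of each group (4 young control, 6 young NACET, 4 old control, 6 old NACET). Arr3 and Opn1sw have the highest means. Their libraries overlap in both control groups, and Arr3 lies above Opn1sw in both NACET groups. The channel subunits Cngb3 and Cnga3 lie lowest.

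Against their rod counterparts, the cone genes were a small share, again per length. Gnat2 was 1.01 ± 0.14% of the rod transducin Gnat1 in young controls (SD, n = 4) and 0.98 ± 0.087% in old controls (SD, n = 4). Pde6h was 2.61 ± 0.17% of Pde6g, Cnga3 1.70 ± 0.30% of Cnga1 and Cngb3 4.82 ± 0.80% of Cngb1 in young controls (SD, n = 4). Arrestin had the highest share: Arr3 reached 27.7 ± 6.81% of the rod arrestin Sag in young controls and 35.5 ± 1.80% in old NACET (SD, n = 4 and n = 6), where the annotated exons of Sag cover 8894 bases and those of Arr3 2368.

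Promoters are shown for the genes that carry the results below: Opn1mw and Gnat2 were called lower in old mice under NACET, Arr3 was called higher with NACET in old mice, and Opn1sw is counted against Opn1mw in the opsin ratio. Each is the 250 bases before the start of the gene in RefSeq, on the strand of the gene, in build GRCm38.p6, which differs from the mm9 build of the counts. The windows are chr6:29380514-29380763 (minus strand) for Opn1sw, chrX:74127216-74127465 (plus strand) for Opn1mw, chrX:100605247-100605496 (plus strand) for Arr3 and chr3:108092816-108093065 (plus strand) for Gnat2. Capitals mark TAATC, the core letters of the site that the photoreceptor homeodomain factors Crx and Otx2 bind, and AGGTCA, the half-site of nuclear receptors such as the thyroid hormone receptor, the retinoid X and the RAR-related orphan receptors. Both were searched on both strands, so GATTA and TGACCT are capitals too, and no match of one motif overlapped a match of the other in these windows. The shorter core TAATC was taken after the sequences had been seen, in place of TAATCC.
Opn1sw: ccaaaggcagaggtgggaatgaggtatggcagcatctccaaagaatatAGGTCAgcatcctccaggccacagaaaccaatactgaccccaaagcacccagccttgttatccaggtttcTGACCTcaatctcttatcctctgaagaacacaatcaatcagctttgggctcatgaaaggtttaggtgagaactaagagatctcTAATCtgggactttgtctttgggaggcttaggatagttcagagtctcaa
Opn1mw: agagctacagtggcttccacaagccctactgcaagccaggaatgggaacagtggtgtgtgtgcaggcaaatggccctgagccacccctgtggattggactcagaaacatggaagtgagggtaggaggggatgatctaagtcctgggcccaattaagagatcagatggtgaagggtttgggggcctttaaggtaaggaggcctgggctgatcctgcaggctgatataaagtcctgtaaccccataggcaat
Arr3: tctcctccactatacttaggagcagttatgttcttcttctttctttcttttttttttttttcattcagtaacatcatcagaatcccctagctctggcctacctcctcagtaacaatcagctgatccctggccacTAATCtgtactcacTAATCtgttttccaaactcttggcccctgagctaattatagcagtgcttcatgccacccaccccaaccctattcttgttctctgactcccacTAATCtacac
Gnat2: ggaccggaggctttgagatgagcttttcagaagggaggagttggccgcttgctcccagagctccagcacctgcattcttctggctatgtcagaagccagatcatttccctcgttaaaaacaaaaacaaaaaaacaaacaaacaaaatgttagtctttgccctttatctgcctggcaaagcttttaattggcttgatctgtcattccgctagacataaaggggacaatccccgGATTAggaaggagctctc

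Arr3 held 3 TAATC cores on its own strand, at bases 116 to 112, 102 to 98 and 10 to 6 before the start. Opn1sw held 1 (bases 49 to 45), Gnat2 held 1 on the other strand (bases 18 to 14) and Opn1mw held none in this window. Opn1sw also held 2 AGGTCA half-sites, at bases 202 to 197 and, on the other strand, 132 to 127, and the other 3 windows held none. Of 32851 RefSeq promoter windows of this length, 19.8% held TAATC, 0.55% held it 3 or more times, 14.0% held AGGTCA and 1.36% held it 2 or more times. The longer TAATCC was held by 6.25% of them. Of the windows printed here only that of Gnat2 held it, and those of Arr3 and Opn1sw did not. Promoter entries were found for 6 of the 10 members; Pde6c, Cngb3, Gngt2 and Gnb3 had none. A match of letters is a description and not a site of binding.

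The groups were compared in 4 ways with edgeR, each over all genes that passed the filter: old with young controls (aging), old NACET with old control, young NACET with young control, and old with young mice under NACET. Calls were made below an adjusted p of 0.05. In aging, 0 of the 10 members were called, where 1.42% of all 16484 genes tested were (1.09% higher and 0.328% lower), and 1 member (Opn1mw, lower) had an unadjusted p under 0.05 against 16.3% of all genes. DESeq2 called 1 member, the same Opn1mw, and 4.35% of all genes. NACET in old mice had 1 member called (Arr3, higher; 0.543% of all genes called, 0.26% higher and 0.284% lower; DESeq2 2.19%), and 3 had an unadjusted p under 0.05, against 14.4% of all genes. NACET in young mice had 0 members called, where edgeR and DESeq2 called 0% of all genes, and 1 (Arr3) had an unadjusted p under 0.05, against 4.36%. Between old and young mice under NACET, 2 members were called (Opn1mw and Gnat2, lower; 4.88% of all genes called, 2.64% lower and 2.24% higher; DESeq2 7.33%), and 8 had an unadjusted p under 0.05, against 21.1%. The last comparison shares the libraries of both NACET comparisons, and aging shares its controls with them, so that the 4 are not independent.

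Without the 5 libraries that stood apart, aging had 0 members called (0.317% of all genes), NACET 0 in old mice (0.0298% of all genes) and 0 in young mice (0% of all genes), and age under NACET 2 (2.21% of all genes). With so few genes called in the first 3, the 0s are not a result about the members. The median log2 change of the members was -0.19 in aging, where that of all genes was -0.0068, and 8 of the 10 were negative. Under NACET between the ages it was -0.20 against -0.0013 and 9 of 10 were negative. In old mice under NACET it was -0.046 against 0.0020, with 4 members positive, and in young mice -0.0022 against -0.0045, with 5 positive. A test of whether the effect of NACET differs between the ages (the interaction of age and treatment) called 0 members and 0% of all 16993 genes, where DESeq2 called 86 genes and 0 members; 1 member, Opn1sw, had an unadjusted p under 0.05, against 6.19% of all genes.

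**Figure D2:**
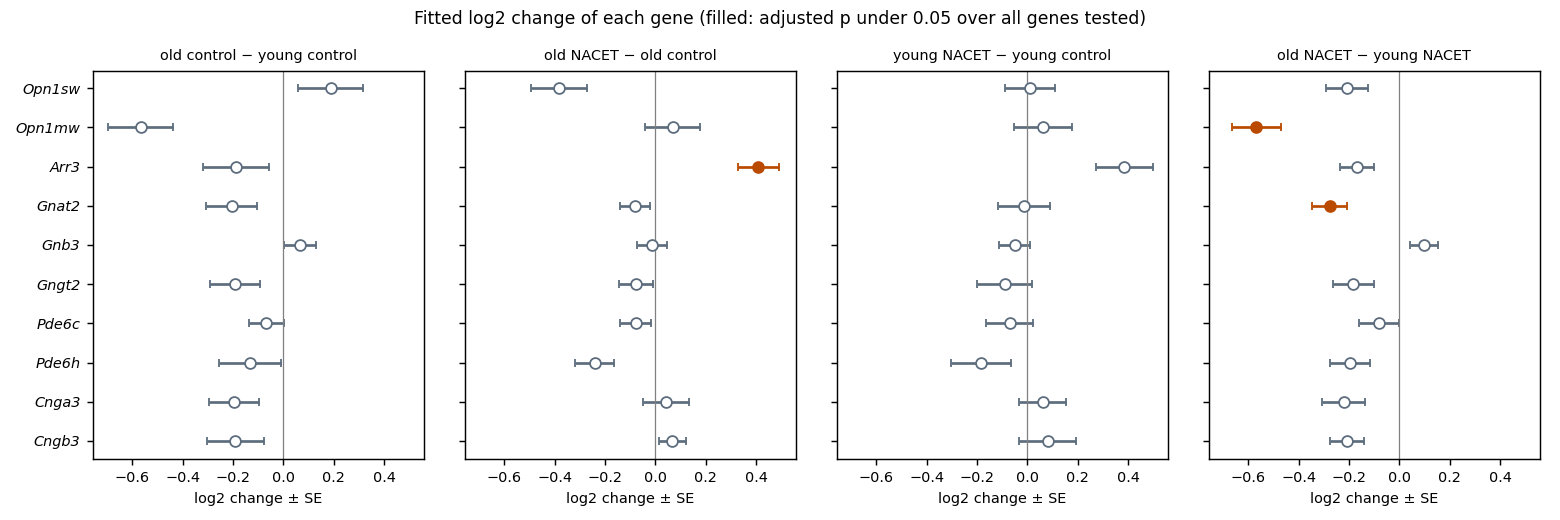
Fitted log2 change ± SE of each gene in the 4 comparisons (4 to 6 libraries per group), with the zero line in grey and filled orange points where the adjusted p over all genes was under 0.05. Opn1mw lies near -0.57 in both comparisons of age, and Arr3 near 0.4 in both comparisons of NACET, where only the old mice passed the threshold.

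Opn1mw, the medium-wavelength opsin (mm9 X: 71372803 to 71396099, plus strand, protein-coding, 8 exon blocks), had a log2 change of -0.57 from young to old mice with NACET and without it, and passed the threshold with it. The difference between these 2 changes was 0.0010 (SE 0.17). Its CPM in young controls 1 to 4 was 213, 172, 214 and 216, and in old controls 147, 104, 155 and 163. No old control reached a young control. In aging, 1 member and 11.3% of all genes tested separated the 2 groups in either direction, and 1.81% of all genes had every old control below every young one. The log2 change was -0.57 (SE 0.13), a fold of 0.67, with an edgeR adjusted p of 0.0554 and a DESeq2 adjusted p of 0.00121. Leaving out young control 2, its lowest young library, gave -0.65 (adjusted p 0.0389), and the adjusted p over the 8 fits without 1 library ran from 0.0389 to 0.121. With labelled sex as a covariate, which sets the 2 young females apart, the change was -0.49 (adjusted p 0.229).

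The NACET mice were other animals than the controls. The CPM of Opn1mw in young NACET 1 to 6 was 268, 202, 192, 192, 224 and 205, and in old NACET 125, 145, 167, 147, 150 and 164. All 6 old libraries lay below all 6 young ones, as did those of 0.786% of all genes, where 4.07% separated in either direction. The log2 change was -0.57 (SE 0.097, fold 0.67, edgeR adjusted p 0.00256), and each of the 12 fits without 1 library called Opn1mw, with log2 changes from -0.61 to -0.47. The sums of rod markers and the median of the pigment epithelium list were lower in old than in young NACET libraries too, as given above. With NACET against control, the log2 change of Opn1mw was 0.069 (SE 0.11, adjusted p 0.828) in old and 0.063 (SE 0.12, adjusted p 1.00) in young mice. The 95% intervals of these changes were -0.14 to 0.28 and -0.16 to 0.29. The 2 groups did not overlap for 3.57% of all genes and 0 members in old mice, and for 0.723% of all genes and 0 members in young mice.

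Opn1sw, the short-wavelength opsin (mm9 6: 29326671 to 29338468, minus strand, protein-coding, 6 exon blocks), had no call in any comparison. Its CPM was 555, 533, 498 and 471 in young controls and 511, 779, 524 and 606 in old controls. Old control 2 was far above the rest, and 2 of 4 old controls exceeded all young controls. The log2 change in aging was 0.19 (SE 0.13, adjusted p 0.506), and 0.035 without old control 2. In young NACET mice the CPM was 550.4, 567, 537, 575, 404 and 500, a log2 change of 0.0098 (SE 0.098, adjusted p 1.00) from their controls. In old NACET mice it was 449, 543, 449, 408, 498 and 461. Of these 6 libraries, 5 lay below every old control, and the log2 change was -0.38 (SE 0.11, fold 0.77), which missed the threshold (unadjusted p 0.00396, adjusted p 0.135).

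Without old control 2 the change of Opn1sw under NACET in old mice was -0.23 (adjusted p 0.371), and without all libraries that stood apart it was -0.12. The effect of NACET on Opn1sw in old minus that in young mice was -0.39 (SE 0.16, unadjusted p 0.0219, adjusted p 0.685). Between the ages under NACET the change was -0.21 (SE 0.084, adjusted p 0.168), and with labelled sex as a covariate -0.29 (adjusted p 0.0393). Opn1sw shares 397 of its exon bases (15.5%) with Calu on the opposite strand, a gene at 151 to 203 CPM with its highest value in old control 2; counting took no account of strand, so reads of this stretch could not be assigned to either gene by strand.

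The ratio of the opsin counts within a library does not depend on how the libraries are scaled. Opn1sw counts over Opn1mw counts were 2.60, 3.11, 2.33 and 2.19 in young controls and 3.47, 7.49, 3.37 and 3.72 in old controls. All 4 old controls lay above all 4 young controls. The mean log2 ratio was higher by 0.75, a fold of 1.68, with a two-sided exact permutation p of 0.0286, the smallest that 4 against 4 libraries allow, and 0.0779 after adjustment over the 4 comparisons. In young NACET the ratio was 2.05, 2.81, 2.79, 3.00, 1.81 and 2.43, and in old NACET 3.58, 3.74, 2.68, 2.78, 3.32 and 2.81. Here 3 of 6 old libraries exceeded all young ones, and the mean log2 ratio was higher by 0.35 (exact permutation p 0.0390, adjusted 0.0779).

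Within the old NACET group the ratios of 3.58 and 3.74 were those of the 668-day mice. The comparison of old NACET with old controls gave a difference of -0.44 (exact permutation p 0.114, adjusted 0.152), and that of young NACET with young controls -0.052 (exact permutation p 0.790, adjusted 0.790). As a share of opsin counts, Opn1sw made up 71.6 ± 3.08% in young controls (SD, n = 4), 70.8 ± 4.19% in young NACET (SD, n = 6), 80.5 ± 5.23% in old controls (SD, n = 4) and 75.7 ± 2.63% in old NACET (SD, n = 6). None of the 4 comparisons passed the threshold after adjustment. Without old control 2, the difference in aging was 0.47 and that of NACET in old mice -0.17.

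Old control 2 also stood apart in some of the 12 listed genes of the dorsal-ventral axis of the retina, the axis along which the opsins are graded. It had the highest level of all 20 libraries in 1 of them (Vax2), the lowest in 5 (Tbx5, Aldh1a1, Efnb2, Tbx3 and Cyp1b1) and lay within the range of the other 19 libraries in 6 (Efnb1, Bmp4, Tbx2, Aldh1a3, Ephb2 and Ephb3). Vax2, a homeodomain factor of the ventral retina, was at 40.2 CPM in old control 2 and at 18.0 to 30.9 CPM in the other 19 libraries. Tbx5, a T-box factor of the dorsal retina, was at 0.90 CPM there and at 2.26 to 5.46 CPM in the others. Efnb2, a dorsal ephrin ligand, was at 13.1 CPM against 20.0 to 30.7, and Aldh1a1, the dorsal retinaldehyde dehydrogenase, at 31.4 CPM against 44.7 to 74.3. Among the genes within the range of the others were the dorsal Tbx2 (46.4 CPM, against 45.8 to 64.1) and Bmp4 (2.03 CPM, against 0.39 to 2.79) and the ventral Ephb2 (29.5 CPM, against 25.2 to 39.7) and Ephb3 (8.75 CPM, against 5.94 to 11.6). How many of all genes had such an extreme in old control 2 was not counted. This library also had the most gene counts (31.1 M) and the highest sum of corneal markers (421 CPM). The genes given with values here were singled out after their values had been seen, and their part in the opsin ratio was not tested.

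**Figure D3:**
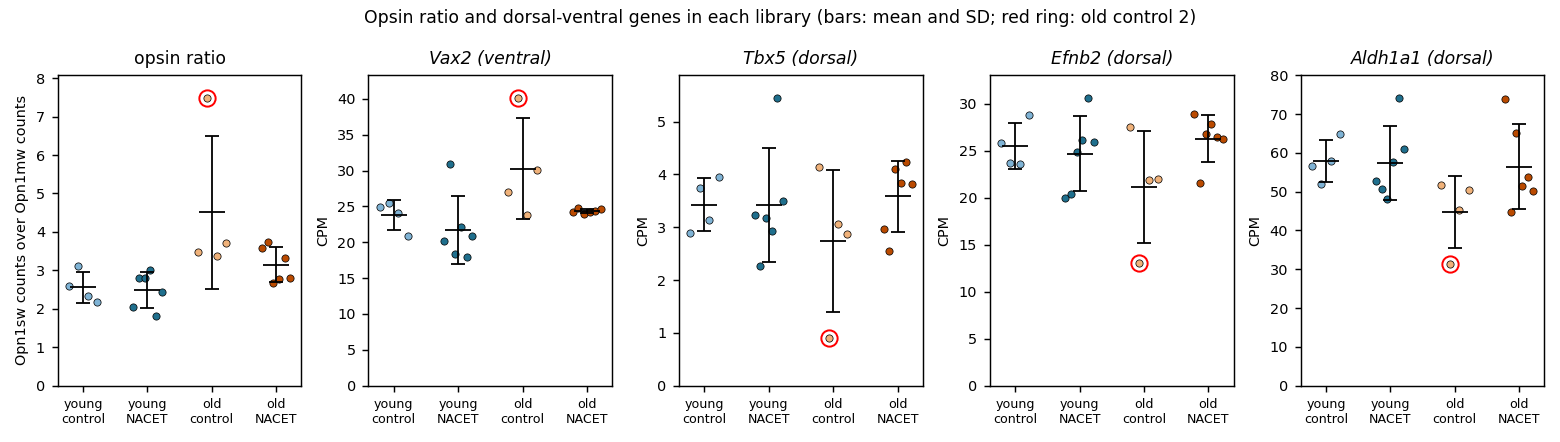
Opn1sw counts over Opn1mw counts and the CPM of Vax2, Tbx5, Efnb2 and Aldh1a1 in each library, as points in replicate order with the mean and SD of each group; the red ring marks old control 2. The ratio of old controls lies at 3.37 or above and that of young controls at 3.11 or below, and old control 2 is the extreme library in each panel, as it was for 6 of the 12 listed axis genes.

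Of the whole list of 12 dorsal-ventral genes, 0 were called in any of the 4 comparisons. In aging the 2 smallest p-values were those of Ephb2, a ventral ephrin receptor (log2 change -0.33, SE 0.093, adjusted p 0.107), and Aldh1a1 (-0.43, SE 0.13, adjusted p 0.139). The median of the list was -0.11 in aging, 0.14 for NACET in old mice, 0.0099 for NACET in young mice and -0.031 between the ages under NACET. For NACET in old mice, the log2 change was -0.33 for Vax2 (SE 0.11, adjusted p 0.177) and 0.34 for Aldh1a1 (SE 0.14, adjusted p 0.293), and old control 2 is in this comparison. For NACET in young mice the smallest p-values were those of Ephb2 (-0.16) and Tbx2 (0.11), and between the ages under NACET those of Efnb1 (0.13) and Cyp1b1 (-0.14).

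Arr3, the cone arrestin (mm9 X: 97800836 to 97813832, plus strand, protein-coding, 16 exon blocks), was called higher with NACET in old mice. Its CPM in old controls 1 to 4 was 396, 403, 511 and 398, and in old NACET 1 to 6 508, 550, 616, 561, 568 and 618. Of the 6 treated libraries, 5 exceeded every old control, and old NACET 1 fell just short of old control 3. The log2 change was 0.41 (SE 0.082, fold 1.33, edgeR adjusted p 0.0456; DESeq2 adjusted p 0.000203). Of the 10 fits without 1 library, 2 called it, with adjusted p-values from 0.0107 (without old control 3, log2 change 0.51) to 0.161 (without old control 2, 0.39).

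The log2 change of Arr3 lay between 0.36 and 0.51 in these 10 fits. With only the 668-day mice, 2 treated against 4 controls, it was 0.30 (adjusted p 0.546); with sex by Xist as a covariate 0.38 (adjusted p 0.127); with all 4 groups in 1 fit 0.41 (adjusted p 0.127); and without the libraries that stood apart 0.37 (adjusted p 0.290). The call therefore rested on the choice of fit. The change was positive in every fit, from 0.30 in the 668-day mice to 0.51 without old control 3. Set against the summed counts of the 7 other non-opsin members of the same library, the log2 of Arr3 was -1.53 to -1.18 in old controls and -1.05 to -0.85 in old NACET, without overlap. The same ratio was lower in old NACET, also without overlap, for Gnat2, Pde6h and Gngt2. In old controls and old NACET, Gnat2 was at -2.61 to -2.45 and -2.77 to -2.63. Pde6h was at -2.93 to -2.59 and -3.24 to -3.02, and Gngt2 at -4.636 to -4.460 and -4.819 to -4.641. The ranges of the remaining members overlapped. Arr3 is part of the sums that these genes were set against. In young mice the ratio of Arr3 overlapped, at -1.92 to -1.02 in controls and -1.08 to -0.61 in NACET. The ratios of Gnat2, Pde6h and Gngt2 overlapped in young mice as well. None of these ratios was tested, and how many of all genes separate on such a ratio was not counted. For NACET in old mice, 4 of the 6 corneal markers passed the filter and 3 were called lower. The pigment epithelium list had a median of -0.91 there, with 0 called. The part of these 2 lists in the change of Arr3 was not tested.

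In young mice the CPM of Arr3 was 355, 443, 521 and 566 in controls and 659, 562, 701, 652, 600.3 and 545 in NACET. Of the 6 treated libraries, 4 exceeded all young controls, and the log2 change was 0.39 (SE 0.11, fold 1.31) with an unadjusted p of 0.00413 and an edgeR adjusted p of 1.00. The effect in old minus that in young mice was 0.020 (SE 0.15, 95% interval -0.27 to 0.31). Young controls 1 and 2, labelled male, had the 2 lowest values of their group, and young controls 3 and 4, labelled female, the 2 highest. This order did not recur in young NACET, where the females were at 600.3 and 545 CPM and the males at 562 to 701 CPM. In labelled males only, where NACET, age and batch tag cannot be told apart, the change was 0.67 (SE 0.13, adjusted p 0.767). With labelled sex as a covariate it was 0.41 (adjusted p 1.00). With the batch tag as a covariate it was 0.33 (SE 0.20, adjusted p 1.00).

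No comparison of age called Arr3. The log2 change from young to old was -0.19 (SE 0.13, adjusted p 0.510) in controls and -0.17 (SE 0.067, adjusted p 0.161) under NACET. In aging the sign turned to 0.048 with labelled sex as a covariate and to 0.049 in labelled males only. Old NACET 1, at 508 CPM, lay below every young NACET library, and the other 5 overlapped them.

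Gnat2, the alpha subunit of cone transducin (mm9 3: 107895707 to 107904350, plus strand, protein-coding, 10 exon blocks), was called lower in old than in young mice under NACET. Its CPM was 294, 248, 253, 255, 241 and 267 in young NACET and 198, 221, 233, 208, 230.1 and 243 in old NACET. Of the 6 old libraries, 5 lay below every young one. The log2 change was -0.28 (SE 0.069, fold 0.83, edgeR adjusted p 0.0294), and 8 of 12 fits without 1 library called it. In controls, Gnat2 was 317, 228, 241 and 254 in young and 227, 234, 235 and 239 in old libraries. The groups overlapped, and young control 1 alone stood above the rest. The change in aging was -0.21 (SE 0.10, adjusted p 0.340), and -0.081 (adjusted p 0.472) without young control 1.

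The other subunits of transducin were not called, and their changes with age differed in sign. Gnb3, the beta subunit of cones and of ON bipolar cells (mm9 6: 124784258 to 124790293, minus strand), was at 393 ± 16.3 CPM in young controls (SD, n = 4), 383 ± 10.6 in young NACET (SD, n = 6), 426 ± 15.6 in old controls (SD, n = 4) and 424 ± 31.1 in old NACET (SD, n = 6). It was the one member above 0 in both comparisons of age, with log2 changes of 0.065 (SE 0.064, adjusted p 0.665) and 0.098 (SE 0.054, adjusted p 0.318). Gngt2, the gamma subunit (mm9 11: 95698530 to 95707048, plus strand), was at 71.1 ± 10.3 CPM in young and 64.3 ± 2.31 CPM in old controls (SD, n = 4 each). Its log2 change was -0.19 (SE 0.10, adjusted p 0.370) in aging and -0.18 (SE 0.080, adjusted p 0.203) under NACET. Gngt2 shares 234 exon bases (12.5%) with Abi3 on the opposite strand, which was at 0.59 to 1.75 CPM.

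Neither phosphodiesterase subunit was called. Pde6c, the catalytic subunit (mm9 19: 38207271 to 38258437, plus strand), was at 182 ± 12.1 CPM in young controls (SD, n = 4), 174 ± 16.9 in young NACET (SD, n = 6), 179 ± 11.2 in old controls (SD, n = 4) and 171 ± 12.7 in old NACET (SD, n = 6). Its 4 log2 changes lay between -0.080 and -0.067 with SEs of 0.062 to 0.093. Pde6h, the inhibitory gamma subunit (mm9 6: 136903044 to 136917386, plus strand), was at 195, 203, 194 and 220 CPM in old controls and at 148, 186, 178, 165, 161 and 198 CPM in old NACET. Of the 6 treated libraries, 5 lay below every old control. The log2 change was -0.24 (SE 0.077, fold 0.85), which missed the threshold (unadjusted p 0.00714, adjusted p 0.167).

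In young mice Pde6h was at 275, 187, 186 and 210 CPM in controls and 169 to 209 CPM in NACET, a log2 change of -0.18 (SE 0.12, adjusted p 1.00). Young control 1 held the highest value of Pde6h, Gnat2, Gngt2 and Cngb3 among all 20 libraries. In aging the change of Pde6h was -0.13 (SE 0.12, adjusted p 0.640), and it turned to 0.027 without young control 1.

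The channel subunits were the least abundant members. Cnga3, the alpha subunit (mm9 1: 37275181 to 37320229, plus strand), was at 17.2 ± 0.95 CPM in young controls (SD, n = 4), 18.0 ± 1.60 in young NACET (SD, n = 6), 15.4 ± 1.63 in old controls (SD, n = 4) and 16.0 ± 1.43 in old NACET (SD, n = 6). Cngb3, the beta subunit (mm9 4: 19207997 to 19437770, plus strand), was at 30.1 ± 4.78, 32.1 ± 2.70, 27.3 ± 0.93 and 28.8 ± 1.15 CPM in the same order. From young to old controls the log2 changes were -0.20 (SE 0.098, adjusted p 0.351) for Cnga3 and -0.19 (SE 0.11, adjusted p 0.434) for Cngb3. Under NACET the changes were -0.22 (SE 0.085, adjusted p 0.149) for Cnga3 and -0.21 (SE 0.068, adjusted p 0.0886) for Cngb3, and neither passed the threshold. With NACET against control, the 4 log2 changes of these genes lay between 0.041 and 0.081.

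**Figure D4:**
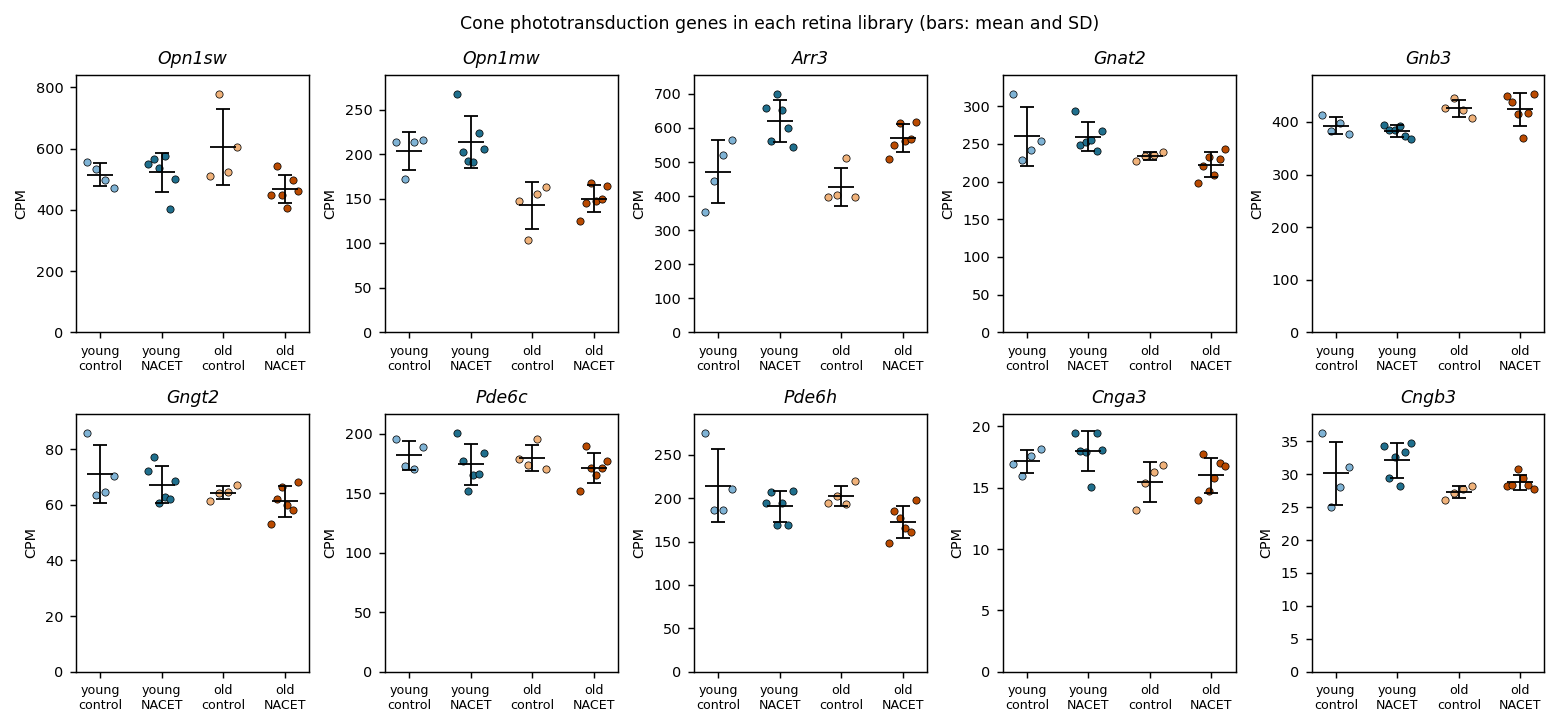
CPM of each of the 10 genes in each of the 20 libraries (points in replicate order), with the mean and SD of each group; every axis starts at 0. The Opn1mw libraries lie at 167 CPM or below in old and at 172 CPM or above in young mice, and the Arr3 means are 620 and 570 CPM in the NACET groups against 471 and 427 CPM in their controls.

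Across mice of the same group the members did not all move together. Over the 20 libraries, with the mean log2 CPM of each group taken out, Pde6h and Gngt2 had a Pearson correlation of 0.91, and Gnat2 had a median correlation of 0.51 with the other 9 members. Arr3 had a median of -0.16 and was positive with 2 of 9. Opn1sw and Opn1mw had a correlation of -0.45. These correlations describe 20 libraries that share depth and dissection, and no test was made. The genes most like the mean of the members, among 11987 genes at 5 CPM or more, were Kcnj14 (Pearson r 0.87), Laptm4b (0.86), 1810009A15Rik (0.85), Prph2 (0.84), Cnga1 (0.84), Rtbdn (0.84), Prom1 (0.84), AI847159 (0.84), Bbs9 (0.83) and Stx3 (0.83). Prph2 and Prom1 are parts of photoreceptor outer segments, and Cnga1 is the alpha subunit of the rod channel.

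A list of 10 rod counterparts, with Sag, Gnat1, Pde6g and Cnga1 among them, served for comparison. In aging 0 of 10 were called and all 10 were negative, with a median of -0.18, near the -0.19 of the cone genes. The smallest p-values were those of Sag (log2 change -0.35, SE 0.12, adjusted p 0.193) and Pde6g (-0.31, SE 0.12, adjusted p 0.227). Between the ages under NACET all 10 were negative as well, with a median of -0.16 against -0.20 for the cone genes. NACET called 0 of 10 at either age; the log2 change was -0.15 for Gnb1 in old mice and -0.16 for Cnga1 in young mice, and the medians were -0.054 in old and -0.056 in young mice.

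Of 14 genes for recovery and calcium feedback in rods, cones or both, 0 were called in aging (12 negative), 0 with NACET at either age, and 1 between the ages under NACET. The 2 smallest p-values in aging were those of Gucy2e, a guanylate cyclase of photoreceptors (-0.14), and Slc24a1, the rod exchanger of sodium, calcium and potassium (-0.16). With NACET they were those of Rgs9bp (-0.15), the membrane anchor of the GTPase complex, and Grk1 (-0.15), the opsin kinase, in old mice, and in young mice Grk1 was at -0.15. The gene called was Pdc, phosducin, which binds the beta-gamma subunits of transducin, at 3441 ± 583 CPM in young and 2184 ± 396 CPM in old NACET (SD, n = 6 each), a log2 change of -0.71 (SE 0.13, adjusted p 0.00537). Of 12 genes for the retinoid cycle and the outer segment, 0 were called in aging and with NACET, and 2 were called lower between the ages under NACET. Rbp3, the retinoid carrier between photoreceptors and pigment epithelium, changed by -0.49 (SE 0.088, adjusted p 0.00357) and Prom1, a protein of outer segment discs, by -0.31 (SE 0.080, adjusted p 0.0336). In aging the values nearest the threshold were -0.34 for Rbp3 (adjusted p 0.132) and -0.20 for Rdh8 (adjusted p 0.173), a retinol dehydrogenase. With NACET they were -0.13 for Prph2 and -0.12 for Rdh12 in old mice, and -0.20 for Rdh12 and -0.073 for Abca4 in young mice.

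Of 12 regulators of cone gene expression, 0 were called in aging or with NACET in old or young mice. Otx2, a homeodomain factor of photoreceptors and bipolar cells, came nearest in aging, at 179 ± 14.4 CPM in young and 221 ± 4.14 CPM in old controls (SD, n = 4 each), a log2 change of 0.26 (SE 0.058, adjusted p 0.0580), and Nr2e3, a rod nuclear receptor, followed (0.29, SE 0.091, adjusted p 0.150). Between the ages under NACET 3 were called. Nr2e3 was higher in old mice by 0.36 (SE 0.065, adjusted p 0.00389). Rorb, an orphan nuclear receptor needed for photoreceptor and short-wavelength opsin expression, was lower, at 261 ± 44.9 CPM in young and 115 ± 28.1 CPM in old NACET (SD, n = 6 each; log2 change -1.24, SE 0.14, adjusted p 5.03e-05). Esrrb, an estrogen-related receptor of rods, was lower as well (log2 change -0.96, SE 0.12, adjusted p 9.29e-05).

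The changes of Rorb and Esrrb with NACET had opposite signs at the 2 ages. For Rorb the log2 change was 0.50 (SE 0.13, unadjusted p 0.00132) in young and -0.56 (SE 0.15, unadjusted p 0.00239) in old mice, an interaction of -1.07 (SE 0.22, adjusted p 0.0678). For Esrrb it was 0.41 (SE 0.098, unadjusted p 0.000981) in young and -0.31 (SE 0.13, unadjusted p 0.0297) in old mice, an interaction of -0.72 (SE 0.17, adjusted p 0.103). Neither interaction passed the threshold. In the other lists, interactions among those with the smallest p-values were those of Gnat1 (-0.15), Pdc (-0.48) and Guca1a (0.19), Rbp3 (-0.15) and Dhrs3 (-0.092), Ephb2 (0.29) and Aldh1a3 (-2.05), and Dbp (-0.15) and Nr1d1 (-0.12), with adjusted p-values of 0.507 or above.

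The 12 clock genes were listed because photoreceptor transcripts vary over the day, and the time of dissection was not given in the sources used here. In aging and with NACET at either age 0 were called. In old mice with NACET, Per1 was nearest the threshold (log2 change -0.22, SE 0.053, adjusted p 0.0744), followed by Nr1d1 (-0.18, adjusted p 0.197). The smallest p-values in aging were those of Nr1d2 (0.12) and Nr1d1 (-0.071), and in young mice with NACET those of Per1 (-0.29) and Per3 (-0.14). Between the ages under NACET 1 was called, Nr1d1 (-0.19, SE 0.052, adjusted p 0.0428). The part of the clock in the results on cone genes was not tested.

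Among the other marker lists, 3 corneal markers were called lower in old NACET than in old control and in young NACET libraries. In each of these comparisons 4 of the 6 corneal markers had passed the filter. Of 8 markers of the retinal pigment epithelium, 1 was called lower between the ages under NACET. Of the 6 lens markers 0 or 1 passed the filter in each of the 4 comparisons and 0 were called. None of the bipolar, amacrine, Muller glia, horizontal or ganglion cell markers was called in any comparison, and of the rod markers Nr2e3 was called higher between the ages under NACET, as given above.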

How the data were processed

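What the authors deposited for each library is a table of unnormalized read counts by gene. Per the labels and the study's methods, polyA RNA went into TruSeq libraries for single-end sequencing, and reads were aligned to mm9 with TopHat2 2.1.0 and counted reads over exons with HTSeq 0.11.2, without strand and in intersection-nonempty mode. The counting annotation was not given in the sources used here, and positions and exon lengths are from GENCODE for mm9. One row with no gene name (0.00094% to 0.0022% of gene counts) was left out.

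Groups came from sample titles. Each comparison was fitted on its own 2 groups with edgeR 4.0.16 in R 4.3.3 (TMM, default filter, quasi-likelihood test, Benjamini-Hochberg over all genes tested); the interaction used all 20 libraries. The fit was tested on simulated data. SE is the log2 change over the root of F, and 95% intervals are 1.96 SE. The opsin ratio used counts plus 0.5 and a two-sided exact permutation test (scipy 1.17.1), adjusted over 4 comparisons. Same-group libraries differed beyond counting noise in all 42 pairs (chi-square per degree of freedom 2.52 to 32.2).

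All 10 members are named and, of each further list, the genes called in a comparison or, where none was, the 2 with the smallest p, besides the 10 genes most like the members. A few genes that this rule would name are not reported here. The members and lists were chosen with earlier results of these data known. The alternatives were DESeq2 1.42.0, other normalization and filters, all 4 groups in 1 fit, sex, batch tag, the 668-day mice, a replicate block, and leaving out libraries.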

Additional observations from a re-analysis of the deposited data

Results flagged for a closer look

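Of 44 tests for a library far from the rest of its group (10 genes and the opsin ratio in 4 groups), 4 passed Dixon's 95% limit, which chance passes in about 1 of 20. Opn1mw was at 171.5 CPM in young control 2, against 213 to 216 CPM in the other young controls. Cnga3 was at 15.1 CPM in young NACET 4, one of the libraries with corneal markers, against 17.9 to 19.5 CPM in its group. Arr3 was at 511 CPM in old control 3, against 396 to 403 CPM in the other old controls. The opsin ratio was 7.49 in old control 2, against 3.37 to 3.72 in the other old controls. Their causes were not tested.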

How the results depend on the processing

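Of the members' log2 changes under the other settings, 417 kept their direction and their side of the threshold, 11 turned direction, 7 came to pass the threshold and 5 no longer did; in fits without 1 library these numbers were 367, 17, 4 and 12. The number of members called was 1 in aging with DESeq2, without the expression filter, with all 4 groups in 1 fit and with the replicate block (Opn1mw in each). It was 0 for NACET in old mice with all 4 groups in 1 fit, with sex by Xist as a covariate, in the 668-day mice and without the libraries that stood apart, and for age under NACET 1 with the replicate block and 3 with either sex covariate and in labelled males. In the fits without 1 library it ran from 0 to 1 in aging and for NACET in old mice, and from 1 to 4 for age under NACET. Same-numbered libraries of different groups did not deviate together (26 pairs, Pearson r from -0.24 to 0.28, 8 of them over 0.1), so the numbers were not taken to pair the mice. With the replicate block, genes called moved from 234 to 163 in aging, from 90 to 17 for NACET in old mice, from 0 to 6 for NACET in young mice and from 795 to 422 for age under NACET. Over all settings other than leaving out 1 library in turn, genes called ran from 53 (without the libraries that stood apart) to 710 (DESeq2) in aging, from 0 (668-day mice) to 373 (DESeq2) for NACET in old mice, from 360 (without the libraries that stood apart) to 1325 (DESeq2) for age under NACET and from 0 to 86 (DESeq2) for the interaction.

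Directions turned as follows, all for changes that had missed the threshold, and the cause was not tested. Arr3 in aging was 0.048 with labelled sex as a covariate and 0.049 in labelled males. Without the libraries that stood apart, Opn1sw in aging was -0.060, Gngt2 with NACET in old mice 0.017 and Gnat2 with NACET in young mice 0.038. In the 668-day mice, NACET gave 0.051 for Gnb3 and -0.080 for Opn1mw. In young mice with NACET, Opn1sw was -0.032 with either sex covariate and -0.37 with the batch tag, and Gnat2 0.0016 with the replicate block. Leaving out 1 library gave -0.20 to 0.027 for Pde6h in aging. For NACET in old mice it gave -0.042 to 0.094 for Cnga3, -0.035 to 0.024 for Gnb3 and -0.053 to 0.15 for Opn1mw. For NACET in young mice it gave -0.010 to 0.20 for Cngb3, -0.084 to 0.11 for Gnat2, -0.15 to 0.033 for Gngt2, -0.023 to 0.11 for Opn1mw, -0.032 to 0.075 for Opn1sw and -0.12 to 0.046 for the opsin log2 ratio. The channel subunits had the fewest counts of the members, 242 to 844 per library.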
